A study of Mus musculus with 24 samples.

Results

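Integrins and laminins join a muscle fibre to the matrix around it, and their genes were followed here in the quadriceps and soleus of mice that lack nebulin in skeletal muscle. The rule for members uses names and no measured value: genes with 1 annotated symbol that began with Itga or Itgb and a digit, was Itgae, Itgal, Itgam, Itgav or Itgax, or began with Lama, Lamb or Lamc and a digit. This gave 39 genes of the 19938 with 1 annotated symbol, and all 39 passed the filter on dim genes that left 15999 genes for testing. They were 17 integrin alpha subunits, 9 integrin beta subunits and 10 laminin chains. The other 3, Itgb1bp1, Itgb1bp2 and Itgb3bp, fit the spelling but encode proteins named for binding an integrin tail and not integrins, and are described apart.

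The study measured RNA with Affymetrix arrays in quadriceps and soleus of male mice aged 40 to 42 days on a mixed background of C57BL/6J and, as the labels spell it, 1219S6/SvEvTac. Every mouse carried the conditional nebulin allele on both chromosomes. Knockouts (cKO) also carried 1 copy of the MCK-Cre transgene, which drives Cre from a muscle creatine kinase promoter, and controls lacked it. There were 6 arrays of each genotype in each muscle, 24 in 4 groups, described as biological replicates, and the submitters call the quadriceps markedly smaller in the cKO and the soleus not significantly so. Cre from this promoter acts in muscle fibres, whereas the RNA came from whole muscle with its vessels, nerves, connective tissue and immune cells. In such RNA fewer cells of a type and less RNA per cell cannot be told apart.

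An integrin is a pair of an alpha and a beta subunit that spans the cell membrane, binds matrix proteins outside and links through talin and kindlin to actin inside. A laminin is a cross-shaped trimer of an alpha, a beta and a gamma chain and the main scaffold of the basement membrane. In adult skeletal muscle the pair of Itga7 and Itgb1 products is the chief laminin-binding integrin of the fibre, and the trimer of Lama2, Lamb1 and Lamc1 products is the chief laminin around it; inherited loss of LAMA2 or ITGA7 causes muscular dystrophy or myopathy in people.

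The values are log2 of the deposited array intensity, and a change is a difference of group means on that scale. Neb, the targeted gene, had a mean log2 intensity of 12.29 ± 0.17 in quadriceps controls, 10.84 ± 0.23 in quadriceps cKO, 12.38 ± 0.21 in soleus controls and 11.24 ± 0.20 in soleus cKO (SD, n = 6 each). All 8 fibre markers listed for the check of the tissue (Ckm, Acta1, Mb, Des, Tnnt3, Tnnt1, Myh4 and Myh7) were above the dim limit on every array. That limit, the 30th percentile of an array, lay between 3.51 and 3.72, and array medians lay between 4.74 and 4.94. Within groups the correlation of arrays over genes was 0.977 to 0.995, and no arrays were identical. Quadriceps control 4 stood apart with the lowest array weight (0.207, where the highest was 1.77), and results that rest on it are given with and without it. Precision is set by 6 arrays a group: over all genes a change had a median standard error of 0.0973 within a muscle, and the difference between muscles 0.138.

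In cKO quadriceps 17 of the 39 genes rose and 4 fell, and in cKO soleus 10 rose and 2 fell (limma, Benjamini-Hochberg adjusted p under 0.05 over all genes tested). Over all genes 40.0% were called in quadriceps (22.3% higher and 17.7% lower) and 23.1% in soleus (13.2% higher and 9.94% lower), against 43.6% and 10.3% of the members in quadriceps and 25.6% and 5.13% in soleus. The median change of the members was 0.22 in quadriceps and 0.08 in soleus, beside -0.01 and -0.02 over all genes. Both muscles shared 9 of the risen genes: the alpha subunits Itga3, Itga5, Itga7, Itga9 and Itgam, the beta subunits Itgb1 and Itgb8, and the laminin chains Lamb1 and Lamc1. A further 8 were called higher in quadriceps alone and 1, Itgb1bp2, in soleus alone, while 15 were not called in either muscle. Without quadriceps control 4 the members higher in quadriceps numbered 12 (with 20.8% of all genes called higher), since Itga8, Itgax, Itgb6, Lama3 and Lama4 were no longer called, and 3 were lower (Itga4, Lama1 and Itgb5). With each array centred on its 75th percentile the quadriceps split was 13 higher and 6 lower, while the higher share of all called genes went from 55.7% to 37.5% and the median of all genes from -0.01 to -0.10. With median centring the soleus split was 10 higher and 0 lower, while that share of all called genes went from 57.0% to 66.9%. No called member changed direction under any of the alternatives tried.

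**Figure D1:**
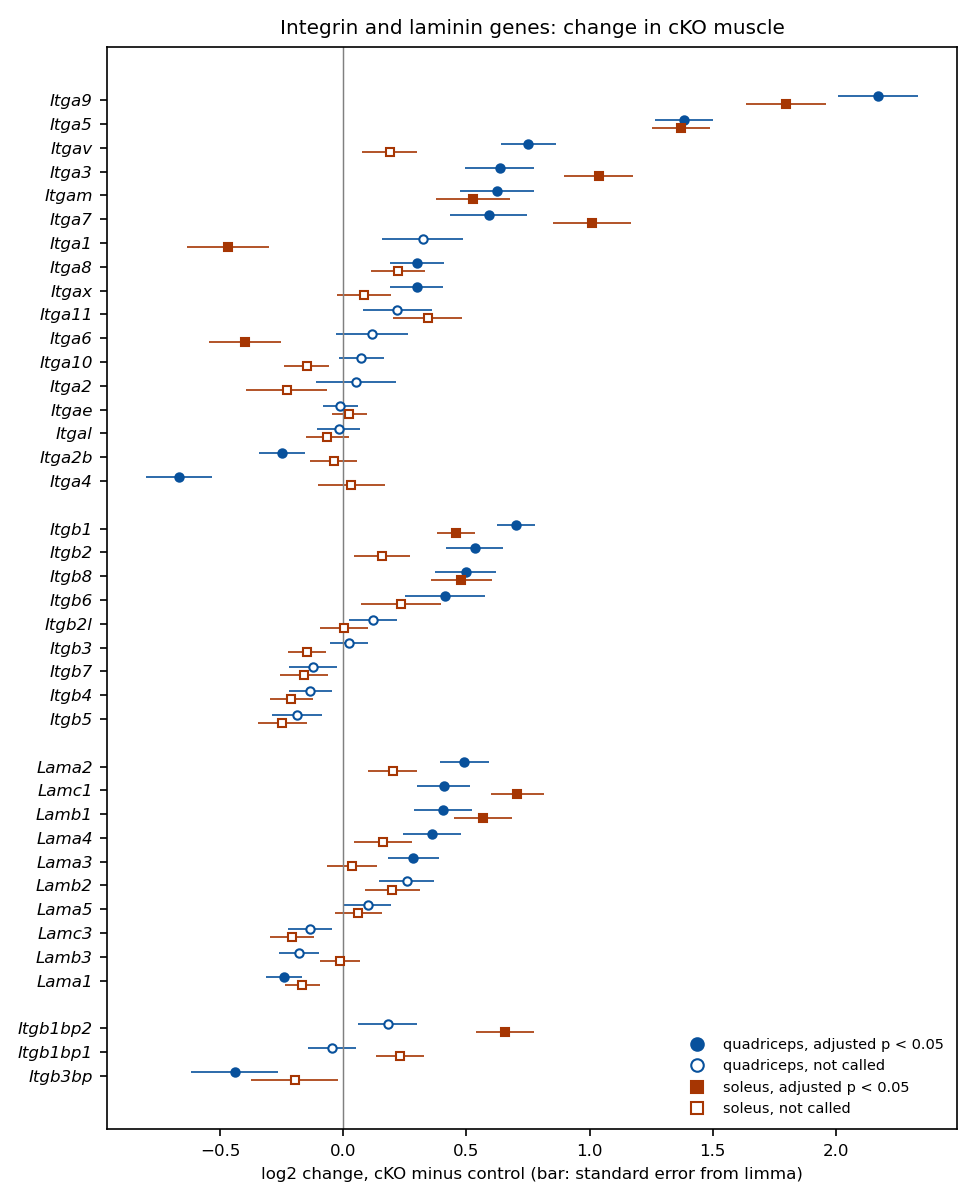
The change in cKO against control (horizontal axis, log2 scale) is plotted for each of the 39 genes, with circles for quadriceps and squares for soleus, filled where limma called the change and with bars for its standard error. Itga9 and Itga5 lie farthest to the right in both muscles, and Itga4 (quadriceps) and Itga1 (soleus) farthest to the left among the called changes of their muscle.

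Stretches of DNA before the start of 4 members are shown, since these genes bracket the responses described here: Itga9 and Itga5 had the largest rises in both muscles, Itgb1 is the partner of most alpha subunits, and Itga4 fell in quadriceps. The RefSeq promoter table (GRCm38.p6) held 26 of the 39 members. Each stretch is the 250 bases before the listed start, written 5′ to 3′ on the gene's strand, at chr9:118711442-118711691 (+) for Itga9, chr15:103366792-103367041 (-) for Itga5, chr8:128685404-128685653 (+) for Itgb1 and chr2:79255176-79255425 (+) for Itga4. The start listed for Itga9 lies inside the outer bounds that the same assembly gives that gene. Capitals mark E-boxes (CANNTG), the core read by myogenic and other basic helix-loop-helix factors, and GC boxes (GGGCGG), the core read by Sp factors, on either strand; no pair of these overlapped here.
Itga9: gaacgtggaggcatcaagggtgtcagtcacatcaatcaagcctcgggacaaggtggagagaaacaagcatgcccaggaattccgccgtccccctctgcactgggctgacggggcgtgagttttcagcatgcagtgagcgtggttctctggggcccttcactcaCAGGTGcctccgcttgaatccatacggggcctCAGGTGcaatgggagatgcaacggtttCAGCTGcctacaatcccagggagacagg
Itga5: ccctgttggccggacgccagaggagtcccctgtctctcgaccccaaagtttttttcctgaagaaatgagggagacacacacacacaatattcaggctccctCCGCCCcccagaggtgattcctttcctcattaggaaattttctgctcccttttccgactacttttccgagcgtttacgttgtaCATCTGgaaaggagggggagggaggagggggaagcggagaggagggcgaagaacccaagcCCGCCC
Itgb1: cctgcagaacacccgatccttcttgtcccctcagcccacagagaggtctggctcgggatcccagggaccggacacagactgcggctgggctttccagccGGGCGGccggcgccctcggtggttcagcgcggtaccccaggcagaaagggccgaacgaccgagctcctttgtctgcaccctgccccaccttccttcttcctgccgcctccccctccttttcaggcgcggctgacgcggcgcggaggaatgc
Itga4: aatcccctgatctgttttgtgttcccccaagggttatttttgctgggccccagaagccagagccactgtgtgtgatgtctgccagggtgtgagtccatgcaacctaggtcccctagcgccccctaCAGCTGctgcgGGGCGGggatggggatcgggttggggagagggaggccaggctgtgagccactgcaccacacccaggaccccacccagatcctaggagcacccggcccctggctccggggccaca
Itga9 held 3 E-boxes and 0 GC boxes, Itga5 held 1 and 2, Itgb1 held 0 and 1, and Itga4 held 1 and 1. Among the 26 members 20 had an E-box (76.9%) and 8 a GC box (30.8%) in this window, beside 69.3% and 35.4% of all 27025 genes in the table. The TATA box letters TATAAA were in 0 of the 26, which says only that these letters are not in this window, and in 14.3% of all genes. A match is a description of the letters and not a measured binding site.

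Among the alpha subunits Itga9 (chr9:118606709-118901003 in GRCm38.p6, as are the positions below), whose product pairs with that of Itgb1 and binds tenascin, osteopontin and Vcam1, rose most in both muscles. Its log2 intensity ran from 5.51 through a median of 6.46 to 7.01 in quadriceps controls and from 8.43 through 8.58 to 8.83 in quadriceps cKO. In soleus it ran from 6.02 through 6.45 to 6.90 in controls and from 7.91 through 8.29 to 8.41 in cKO. Every cKO array thus lay above every control array of its muscle. The rise was 4.50-fold in quadriceps (log2 change 2.17, SE 0.16, limma adjusted p = 6.59e-11) and 3.47-fold in soleus (1.80, SE 0.16, adjusted p = 5.28e-09). Limma's test did not call the 2 changes different (-0.38, SE 0.23, adjusted p = 0.312).

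Itga5 (chr15:103344286-103366791) encodes the alpha subunit of the classical fibronectin receptor. It ran from 6.30 through 6.48 to 6.78 in quadriceps controls and from 7.59 through 7.91 to 8.07 in cKO, and from 6.96 through 7.11 to 7.75 in soleus controls and from 8.40 through 8.56 to 8.84 in cKO. The groups were apart in both muscles, with soleus above quadriceps in either genotype. It rose 2.61-fold in quadriceps (log2 change 1.38, SE 0.12, limma adjusted p = 5.77e-10) and 2.59-fold in soleus (1.37, SE 0.12, adjusted p = 1.72e-09), and the difference of the changes was -0.01 (SE 0.17, adjusted p = 0.977).

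The laminin-binding alpha subunits did not move alike: Itga3 and Itga7 rose in both muscles, whereas Itga6 did not pass in quadriceps and fell in soleus. The Itga6 fall was not firm (limma adjusted p = 0.0461), and its call was lost under 15 alternatives. Itga7 (chr10:128933421-128958286) ran from 6.95 through 7.31 to 7.79 in quadriceps controls and from 7.69 through 7.90 to 8.11 in cKO, where 4 of the 6 cKO arrays lay above all controls. Soleus arrays ran from 6.74 through 6.95 to 7.80 in controls and from 7.95 through 8.13 to 8.49 in cKO, with no overlap. It rose 1.50-fold in quadriceps (log2 change 0.59, SE 0.16, limma adjusted p = 0.00393) and 2.01-fold in soleus (1.01, SE 0.16, adjusted p = 2.08e-05).

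Itga3 (chr11:95044475-95076844) ran from 5.39 through 5.81 to 6.02 in quadriceps controls and from 6.23 through 6.40 to 6.65 in cKO. In soleus it ran from 5.38 through 5.75 to 6.11 in controls and from 6.19 through 6.90 to 7.23 in cKO. All 6 cKO arrays were above the controls in each muscle, by 1.55-fold in quadriceps (log2 change 0.63, SE 0.14, limma adjusted p = 0.000687) and 2.05-fold in soleus (1.04, SE 0.14, adjusted p = 2.61e-06). The changes in soleus were larger in size than those in quadriceps for both genes, but the difference between muscles did not pass the test for Itga3 (0.40, SE 0.20, adjusted p = 0.188) or Itga7 (0.42, SE 0.22, adjusted p = 0.228). It did pass with array weights (0.0436 and 0.0272) and when the 3 lowest-weighted arrays were dropped (0.0435 and 0.0275), and for Itga3 also without soleus cKO 4 (0.0464).

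Itgb1 (chr8:128685654-128733579) encodes the beta subunit shared by most of these alpha subunits. It ran from 9.75 through 10.06 to 10.25 in quadriceps controls and from 10.67 through 10.77 to 10.86 in cKO, and from 10.00 through 10.19 to 10.34 in soleus controls and from 10.53 through 10.67 to 10.74 in cKO. Both muscles separated cKO from control, and the spread within cKO was small (SD 0.06 in quadriceps and 0.08 in soleus). The rise was 1.63-fold in quadriceps (log2 change 0.70, SE 0.08, limma adjusted p = 6.96e-08) and 1.37-fold in soleus (0.46, SE 0.08, adjusted p = 6.99e-05), and the difference of the changes was -0.24 (SE 0.11, adjusted p = 0.154; called with array weights at 0.0327).

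Of the 39 genes 7 had every quadriceps cKO array above every control array (Itga3, Itga5, Itga9, Itgav, Itgb1, Itgb8 and Lama2), which held for 10.1% of all genes tested. In soleus 8 did (Itga3, Itga5, Itga7, Itga9, Itgb1, Itgb1bp2, Lamb1 and Lamc1), beside 7.82% of all genes. Every cKO array lay below every control array for 1 member in soleus, Itgb5, beside 4.96% of all genes, and for 0 in quadriceps, beside 6.06%.

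**Figure D2:**
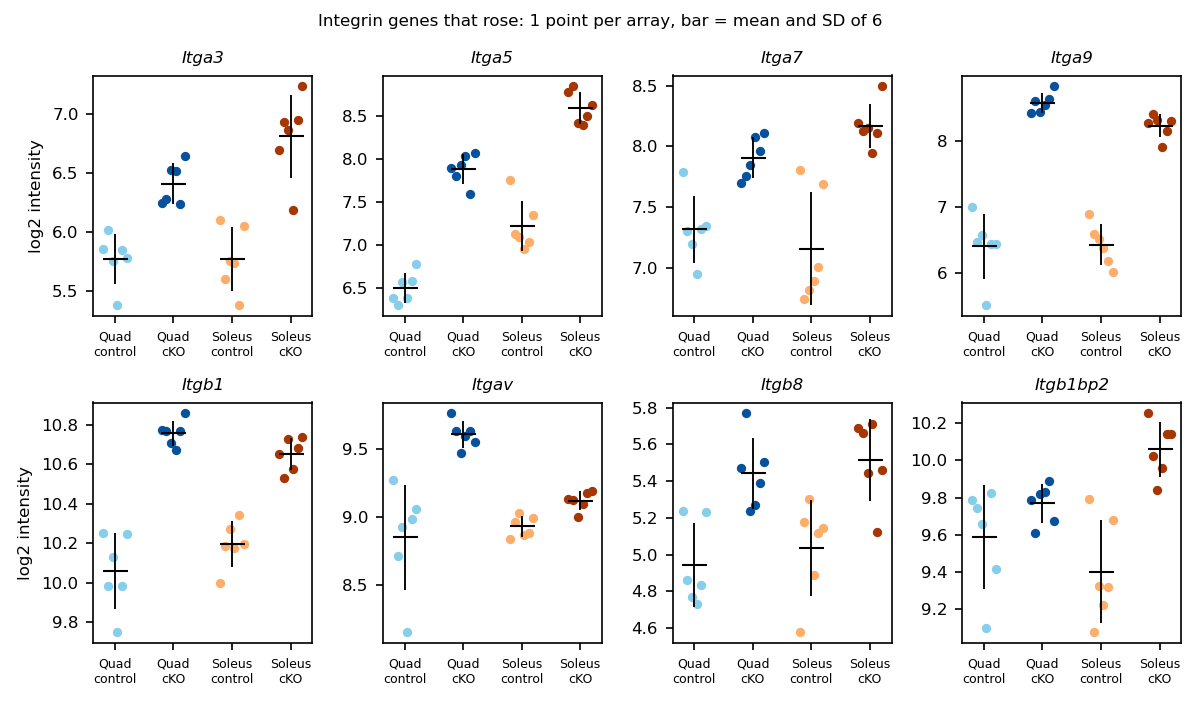
Log2 intensity (vertical axis) is plotted for 8 genes in the 4 groups, 1 point per array, with the mean and SD of the 6 arrays as bars. For Itga9, Itga5, Itga3 and Itgb1 the cKO points lie above the control points in both muscles; for Itgav they do so in quadriceps and for Itga7 and Itgb1bp2 in soleus.

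Satellite cells, the stem cells of muscle, also carry the Itga7, Itga9 and Itgb1 products, and markers of other cells moved in the same arrays. Of 8 satellite cell markers 5 rose in quadriceps and 3 in soleus, with none lower. The log2 of their summed intensity ran from 8.98 to 9.20 in quadriceps controls and from 9.47 to 9.78 in cKO, and from 8.84 to 9.34 and from 9.25 to 9.62 in soleus. Fibro-adipogenic progenitors are the matrix-making cells between fibres. Of 8 of their markers 6 rose and 1 fell in quadriceps and 4 rose in soleus, and their sum ran from 12.55 to 13.01 in quadriceps controls and from 12.99 to 13.13 in cKO, and from 12.70 to 12.87 and from 12.77 to 13.00 in soleus. None of these markers was below the dim limit on all arrays of a group. Their part in the rise of the integrin genes was not tested.

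The alpha v subunit and its beta partners behaved unequally. Itgav (chr2:83722303-83806917), whose product binds vitronectin and latent transforming growth factor beta, ran from 8.16 through 8.96 to 9.27 in quadriceps controls and from 9.47 through 9.61 to 9.76 in cKO, with no overlap. Soleus arrays ran from 8.84 through 8.93 to 9.03 in controls and from 9.0 through 9.13 to 9.19 in cKO, with 5 of 6 cKO arrays above the controls. It rose 1.68-fold in quadriceps (log2 change 0.75, SE 0.11, limma adjusted p = 7.29e-06), while the soleus change of 0.19 (SE 0.11, adjusted p = 0.255) was not called unless soleus was fitted on its own arrays (adjusted p = 0.0323). The changes differed between muscles (-0.56, SE 0.16, adjusted p = 0.0204).

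Of the beta subunits known to pair with alpha v, Itgb8, which helps to activate latent transforming growth factor beta, rose by 0.50 in quadriceps (SE 0.12, adjusted p = 0.0023) and 0.48 in soleus (SE 0.12, adjusted p = 0.0051). Its arrays ran from 4.73 to 5.24 in quadriceps controls against 5.24 to 5.77 in cKO, and from 4.58 to 5.31 against 5.12 to 5.71 in soleus. Itgb6 rose by 0.41 in quadriceps (SE 0.16, adjusted p = 0.0425), with controls between 7.22 and 8.67 and cKO arrays, all inside that range, between 8.14 and 8.60. That call was lost under 12 alternatives, among them leaving out quadriceps control 3, 4 or 6 or cKO 1, 4, 5 or 6 (adjusted p from 0.0529 to 0.144). The change was 0.27 without quadriceps control 4 and 0.19 (adjusted p = 0.315) without the 3 lowest-weighted arrays. Its soleus change was 0.23 (SE 0.16, adjusted p = 0.329).

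Itgb5 and Itgb3, whose products also pair with alpha v, were not called in either muscle. Itgb5 changed by -0.19 in quadriceps (SE 0.10, adjusted p = 0.138) and -0.25 in soleus (SE 0.10, adjusted p = 0.0796), where controls lay between 8.67 and 8.96 and every cKO array below them, between 8.45 and 8.66. Without quadriceps control 4 both changes passed (adjusted p = 0.0066 in quadriceps and 0.0197 in soleus, which shares its spread estimate with quadriceps), and the soleus change also passed with soleus fitted alone (0.0108) and after quantile normalization (0.0103). Itgb3 changed by 0.02 in quadriceps (adjusted p = 0.834) and -0.15 in soleus (adjusted p = 0.177).

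Itga8, which binds nephronectin together with the Itgb1 product, rose by 0.30 in quadriceps (SE 0.11, adjusted p = 0.031), from 5.37 to 5.89 in controls and from 5.79 to 6.09 in cKO. The call was lost without any of quadriceps control 1, 2 or 4 or cKO 1, 5 or 6 (adjusted p from 0.0528 to 0.0831) and under 75th percentile centring (0.0935) and quantile normalization (0.107). In soleus its change of 0.22 (adjusted p = 0.157) was called without soleus cKO 4 (0.00926). The collagen-binding Itga11 changed by 0.22 in quadriceps (SE 0.14, adjusted p = 0.218) and 0.34 in soleus (SE 0.14, adjusted p = 0.0814), the latter called without soleus cKO 5 (0.0273).

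3 alpha subunits differed in their change between the muscles: Itgav as given above, Itga4 and Itga1. That is 7.69% of the members, beside 12.3% of all genes (4.89% with a higher and 7.39% with a lower change in soleus than in quadriceps). Itga4 (chr2:79255426-79333114) encodes an alpha subunit that binds Vcam1 and fibronectin and is known from leukocytes and from muscle development. Its log2 intensity ran from 6.95 through 7.56 to 7.82 in quadriceps controls and from 6.58 through 6.72 to 6.98 in cKO, where 5 of 6 arrays lay below all controls. In soleus it ran from 5.44 through 5.91 to 6.10 in controls and from 5.70 through 5.86 to 6.06 in cKO. Quadriceps lay above soleus on every array of either genotype, and the cKO quadriceps fell part of the way towards soleus. The fall was 1.59-fold in quadriceps (log2 change -0.67, SE 0.13, limma adjusted p = 0.000303) against 0.03 in soleus (SE 0.13, adjusted p = 0.894), with a difference of 0.70 (SE 0.19, adjusted p = 0.0165).

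Itga1 (chr13:114958079-115101964) encodes a collagen-binding alpha subunit found on vessel and connective tissue cells. It ran from 7.24 through 7.56 to 8.44 in quadriceps controls and from 7.77 through 7.98 to 8.30 in cKO, and the groups overlapped. Soleus arrays ran from 7.78 through 8.29 to 8.70 in controls and from 7.63 through 7.68 to 7.94 in cKO, with 5 of 6 cKO arrays below all controls. The change was 0.32 in quadriceps (SE 0.17, adjusted p = 0.122) and -0.47 in soleus (SE 0.17, adjusted p = 0.0402), and the difference was -0.79 (SE 0.23, adjusted p = 0.0261). The difference was lost without quadriceps control 2 (adjusted p = 0.0514) and with median centring (0.0508). The soleus fall was lost without any of soleus control 3, 4, 5 or 6 or cKO 1, 2, 3, 5 or 6 (adjusted p from 0.0553 to 0.116) and with median centring (0.0782), and a quadriceps rise was called without quadriceps control 6 (0.0107).

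Itga6 (chr2:71786886-71858427), the laminin-binding subunit of vessel, nerve and stem cells, changed by 0.12 in quadriceps (SE 0.14, adjusted p = 0.537), with arrays from 7.08 to 7.98 in controls and from 7.29 to 7.73 in cKO. In soleus it fell by 0.40 (SE 0.14, adjusted p = 0.0461), from 7.26 to 8.18 in controls and from 7.11 to 7.45 in cKO. That call was lost under 15 alternatives, among them leaving out soleus control 2, 5 or 6, soleus cKO 1, 2, 3, 5 or 6, quadriceps control 1, 2 or 5, or quadriceps cKO 4 or 6, the quadriceps arrays entering through the shared spread (adjusted p from 0.0503 to 0.144). The difference between muscles (-0.52, SE 0.20, adjusted p = 0.0975) was called without quadriceps control 6 (0.0155) or soleus control 1 (0.0467) and with the muscles of 1 animal as a block (0.0429).

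Markers of vessel and tendon cells moved with Itga1 and Itga6 in soleus. Of 10 endothelial genes 7 fell in cKO soleus and none was called in cKO quadriceps; the log2 of their sum ran from 11.35 to 12.00 in soleus controls and from 11.00 to 11.21 in soleus cKO, against 11.01 to 11.75 and 10.92 to 11.33 in quadriceps. Of 9 pericyte and smooth muscle genes 5 fell and 1 rose in soleus, where their sum ran from 12.04 to 12.38 in controls and from 11.79 to 11.90 in cKO, and 1 fell and 2 rose in quadriceps (11.70 to 12.26 against 11.81 to 11.93). Of 6 tenocyte genes, which mark tendon cells, 5 fell and none rose in soleus (median change -0.70), where their sum ran from 11.11 to 11.63 in controls and from 10.28 to 11.0 in cKO, and 1 fell in quadriceps (10.20 to 11.23 against 10.41 to 10.80). None of the genes of these 3 lists was below the dim limit on all arrays of any group. In the other lists the soleus calls were mixed. Of 5 Schwann cell (nerve), 4 neutrophil and 5 epithelial genes tested none was called there. Of 4 lymphocyte, 5 dendritic cell and 2 platelet genes tested 1 in each list fell in soleus and none rose. Of 8 fibre genes 1 rose and 2 fell in soleus, and of 12 macrophage genes 9 rose and none fell. Of the satellite cell genes 3 of 8 rose there and of the fibro-adipogenic progenitor genes 4 of 8, with none lower. The part of any of these cells in the Itga1 and Itga6 values was not tested.

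**Figure D3:**
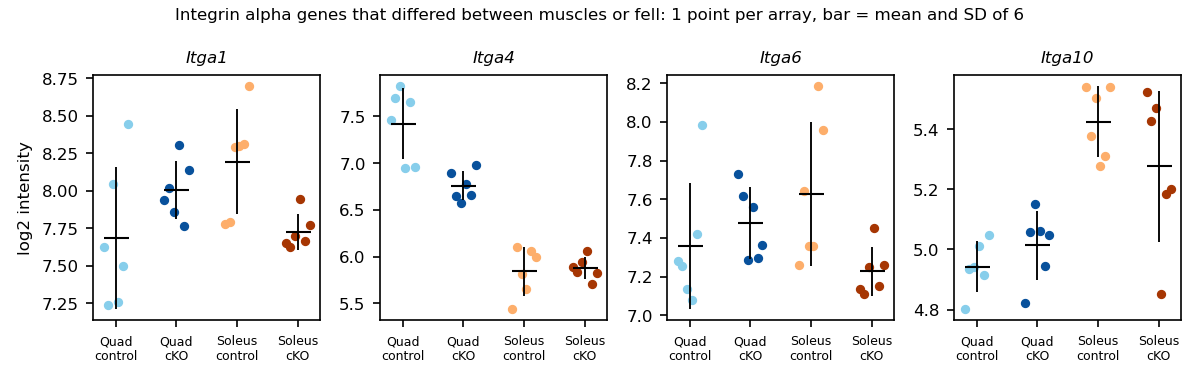
Log2 intensity (vertical axis) is plotted for Itga1, Itga4, Itga6 and Itga10 in the 4 groups, 1 point per array, with the mean and SD of the 6 arrays as bars. Itga4 is high in quadriceps controls, lower in quadriceps cKO and lowest in both soleus groups, whereas 5 of the 6 soleus cKO points of Itga1 and 4 of those of Itga6 lie below all soleus controls.

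The leukocyte integrins Itgam, Itgax and Itgb2 were higher in quadriceps, and of these Itgam was also called in soleus. Itgam and Itgb2 together form the complement receptor of macrophages and neutrophils, and Itgax and Itgb2 that of dendritic cells and some macrophages. Itgam (chr7:128062640-128118491) ran from 4.41 through 4.95 to 5.27 in quadriceps controls and from 5.16 through 5.56 to 5.69 in cKO, and from 4.46 through 5.03 to 5.27 and from 5.03 through 5.48 to 5.67 in soleus. In each muscle 5 of 6 cKO arrays lay above all controls. It rose by 0.62 in quadriceps (SE 0.15, adjusted p = 0.00161) and 0.53 in soleus (SE 0.15, adjusted p = 0.0105). Itgb2 rose by 0.53 in quadriceps (SE 0.12, adjusted p = 0.00059), from 4.50 to 5.47 in controls and from 5.34 to 5.70 in cKO, and changed by 0.16 in soleus (SE 0.12, adjusted p = 0.36). The difference between muscles did not pass (-0.38, SE 0.16, adjusted p = 0.133) unless quadriceps control 3 was left out (0.0309).

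Itgax rose by 0.30 in quadriceps (SE 0.11, adjusted p = 0.0298), from 3.87 to 4.08 in controls and from 3.86 to 4.72 in cKO. Its call was lost without quadriceps control 4 or cKO 2 or 3 (adjusted p from 0.0571 to 0.0937) and under 4 other alternatives (0.0527 to 0.13). The lymphocyte integrins Itgal, Itgae and Itgb7 were not called in any comparison of the main setting, with cKO changes between -0.16 and 0.02. Itgb7 was called lower in quadriceps when the 3 lowest-weighted arrays were dropped (-0.25, limma adjusted p = 0.0311). Itgal and Itgae had group means between 3.79 and 3.95, near the dim limit.

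Macrophage markers rose beside Itgam in both muscles, and beside Itgb2 and Itgax in quadriceps, whereas Itgb2 and Itgax were not called in soleus. Of 12 macrophage markers listed, 10 rose in quadriceps and 9 in soleus, with none lower. The log2 of their sum ran from 10.08 to 10.83 in quadriceps controls and from 11.00 to 11.27 in cKO, and from 9.92 to 10.32 and from 10.41 to 10.99 in soleus, so that cKO and control did not overlap in either muscle. Of 5 dendritic cell genes tested 0 rose and 1 fell in each muscle, and of 4 neutrophil genes tested none was called in either. The neutrophil genes S100a8 and Ly6g were below the dim limit on all 24 arrays, as were the lymphocyte genes Cd3g, Ms4a1 and Cd79a. The part of macrophage number in the Itgam, Itgax and Itgb2 values was not tested.

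**Figure D4:**
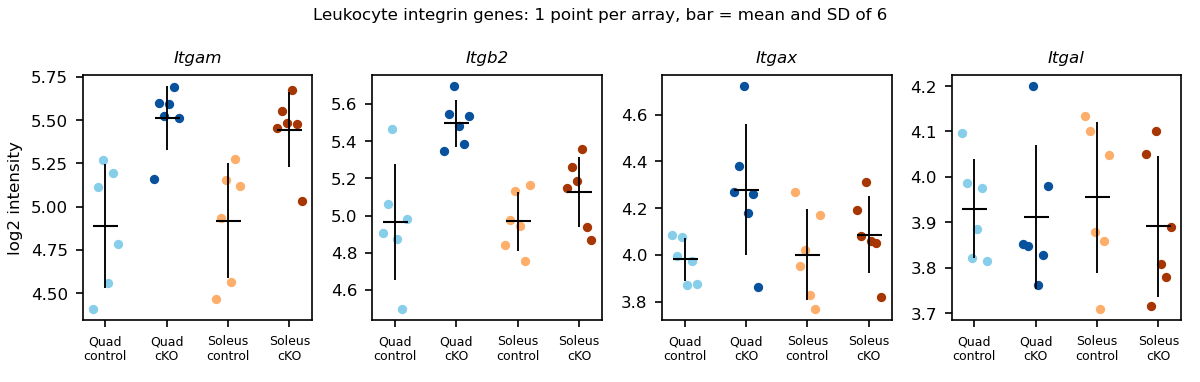
Log2 intensity (vertical axis) is plotted for Itgam, Itgb2, Itgax and Itgal in the 4 groups, 1 point per array, with the mean and SD of the 6 arrays as bars. The cKO points of Itgam lie mostly above the controls in both muscles, those of Itgb2 in quadriceps, and those of Itgal do not separate.

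Of the 10 laminin chains 5 rose and 1 fell in cKO quadriceps, beside 22.3% and 17.7% of all genes. In cKO soleus 2 rose and 0 fell, beside 13.2% and 9.94% of all genes. The gamma chain Lamc1 (chr1:153218922-153332786), part of most laminins, ran from 8.90 through 9.29 to 9.74 in quadriceps controls and from 9.62 through 9.78 to 9.85 in cKO, where 5 of 6 arrays lay above the controls. In soleus it ran from 9.17 through 9.39 to 9.64 in controls and from 10.02 through 10.06 to 10.29 in cKO, with no overlap. It rose 1.33-fold in quadriceps (log2 change 0.41, SE 0.11, limma adjusted p = 0.0037) and 1.63-fold in soleus (0.71, SE 0.11, adjusted p = 1.63e-05).

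Lamb1 (chr12:31265146-31329644), the beta chain of the chief muscle laminin, ran from 7.66 through 7.88 to 8.36 in quadriceps controls and from 8.20 through 8.37 to 8.47 in cKO, with 4 of 6 arrays above the controls. Soleus arrays ran from 7.37 through 7.73 to 8.06 in controls and from 8.08 through 8.29 to 8.45 in cKO, again with no overlap. It rose 1.32-fold in quadriceps (log2 change 0.41, SE 0.12, limma adjusted p = 0.00731) and 1.48-fold in soleus (0.57, SE 0.12, adjusted p = 0.00063). For neither chain did the difference between muscles pass the test (0.30, SE 0.15, adjusted p = 0.211 for Lamc1, called only with array weights at 0.0411, and 0.16, SE 0.17, adjusted p = 0.578 for Lamb1).

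Lama2 (chr10:26981285-27617191), the alpha chain of that trimer, ran from 8.17 through 8.44 to 8.78 in quadriceps controls and from 8.86 through 9.0 to 9.08 in cKO, with no overlap. In soleus it ran from 8.64 through 8.78 to 9.01 in controls and from 8.75 through 9.05 to 9.29 in cKO. It rose 1.41-fold in quadriceps (log2 change 0.49, SE 0.10, limma adjusted p = 0.000345), while the soleus change of 0.20 (SE 0.10, adjusted p = 0.164) was not called. The changes were not shown to differ (-0.29, SE 0.14, adjusted p = 0.188).

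The other alpha chains moved less. Lama4, a chain of vessel basement membranes, rose by 0.36 in quadriceps (SE 0.12, adjusted p = 0.0166), from 7.09 to 7.80 in controls and from 7.62 to 8.18 in cKO, and the call was lost without quadriceps control 4 (0.052) or cKO 2 (0.0549). Lama3, an epithelial chain, rose by 0.28 in quadriceps (SE 0.10, adjusted p = 0.0291), lost without quadriceps control 4 or 5 or cKO 5 (0.0614 to 0.0965), under 75th percentile centring (0.0901), after quantile normalization (0.0631) and with quadriceps fitted alone (0.0789). In soleus these changes were 0.16 for Lama4 (adjusted p = 0.354) and 0.04 for Lama3 (adjusted p = 0.847). Lama5, which is also found in vessels, changed by 0.10 and 0.06 and was not called in either muscle.

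Lama1 (chr17:67697127-67822645), the alpha chain of embryonic basement membranes, was the only laminin called lower in the main setting. It ran from 4.01 through 4.24 to 4.35 in quadriceps controls and from 3.87 through 3.97 to 4.09 in cKO, where 5 of 6 arrays lay below all controls, and from 4.30 through 4.41 to 4.56 and from 4.14 through 4.24 to 4.46 in soleus. The fall was 1.18-fold in quadriceps (log2 change -0.24, SE 0.07, limma adjusted p = 0.00897), and the soleus change of -0.17 (SE 0.07, adjusted p = 0.0973) was called without soleus cKO 5 (0.042). All these levels were close to the dim limit.

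Lamb2, the beta chain enriched at the neuromuscular junction, changed by 0.26 in quadriceps (SE 0.11, adjusted p = 0.066) and 0.20 in soleus (SE 0.11, adjusted p = 0.214). Its quadriceps controls ran from 7.85 to 8.76 and its cKO arrays from 8.62 to 8.79, and the change passed without quadriceps control 1 (0.0463) or 6 (0.0258). Without quadriceps control 4, which read 7.85, the quadriceps change was 0.13, the lowest of the alternatives. Limma's adjusted p reached 0.218 among them. In soleus it passed with array weights (0.00966) and when the 3 lowest-weighted arrays were dropped (0.00634). Lamb3 and Lamc3, chains known best from skin and from nerve or eye, were not called in the main setting. Lamb3 changed by -0.18 in quadriceps (adjusted p = 0.0781) and -0.01 in soleus. Its quadriceps change passed without quadriceps control 6 (0.0448) or cKO 3 (0.0325). Lamc3 changed by -0.13 and -0.21 (adjusted p = 0.234 and 0.093). Its fall passed with array weights in quadriceps (0.035) and soleus (0.0464), and in quadriceps when the 3 lowest-weighted arrays were dropped (0.0247).

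**Figure D5:**
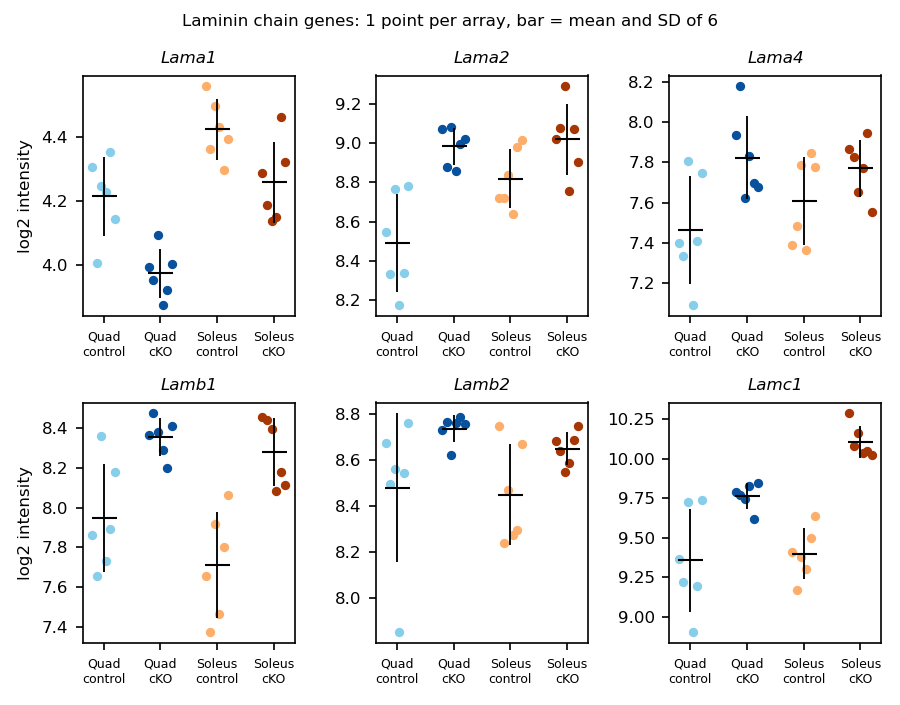
Log2 intensity (vertical axis) is plotted for 6 laminin chains in the 4 groups, 1 point per array, with the mean and SD of the 6 arrays as bars. The soleus cKO points of Lamc1 and Lamb1 and the quadriceps cKO points of Lama2 lie above all controls of their muscle, and the lowest quadriceps control of Lamb2, array 4, stands apart at 7.85.

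The integrin-binding proteins moved singly. Itgb1bp2 (chrX:101449088-101466122), known as melusin, is a chaperone-like protein of striated muscle that binds the tail of the Itgb1 product. It ran from 9.10 through 9.70 to 9.83 in quadriceps controls and from 9.61 through 9.80 to 9.89 in cKO, and from 9.08 through 9.32 to 9.80 in soleus controls and from 9.84 through 10.08 to 10.25 in cKO. The soleus groups did not overlap and the quadriceps groups did. It rose 1.58-fold in soleus (log2 change 0.66, SE 0.12, limma adjusted p = 0.000138), while its quadriceps change was 0.18 (SE 0.12, adjusted p = 0.23). The difference between muscles was 0.48 (SE 0.17, adjusted p = 0.0611) and passed in 10 alternatives, among them the muscles of 1 animal as a block (0.0288) and leaving out quadriceps control 4 (0.0114) or 6 (0.039), soleus control 1 (0.0181) or 6 (0.0393) or soleus cKO 3 (0.0488).

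Itgb1bp1, an inhibitor of integrin activation, changed by -0.05 in quadriceps (adjusted p = 0.728) and 0.23 in soleus (SE 0.10, adjusted p = 0.0893; 0.0492 without soleus control 1). Itgb3bp, a centromere protein also found with the Itgb3 tail, fell by 0.44 in quadriceps (SE 0.18, adjusted p = 0.0465). It lay close to the dim limit, above it on 6 of 6 quadriceps controls, 4 quadriceps cKO, 3 soleus controls and 1 soleus cKO. The fall was lost under 19 alternatives; without quadriceps control 4, which read 5.07 where the next control read 4.12, the change was -0.25 (adjusted p = 0.162). Leaving out quadriceps control 3 or 5, quadriceps cKO 2, 3, 4 or 6 or soleus cKO 2, 3, 4 or 6 also ended it (0.0505 to 0.107).

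Of the remaining integrin subunits the platelet subunit Itga2b fell by 0.25 in quadriceps (SE 0.10, adjusted p = 0.0388), from 4.30 to 4.82 in controls and from 4.17 to 4.62 in cKO. That call was lost without any of quadriceps control 1, 2, 4 or 5 or cKO 1, 2, 4 or 5 (adjusted p from 0.0516 to 0.103) and with quadriceps fitted alone (0.0803). The collagen-binding Itga2 and Itga10, the epithelial Itgb4 and Itgb2l were not called in either cKO comparison. Their changes lay between -0.13 and 0.12 in quadriceps and between -0.23 and 0.00 in soleus. The soleus change of Itgb4 (-0.21, adjusted p = 0.0833) passed without soleus control 2 (0.0442) or soleus cKO 6 (0.041).

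Between control muscles, where Cre was absent, 7 members were higher and 3 lower in soleus than in quadriceps (17.9% and 7.69%). Over all genes 33.5% were called, 15.2% higher and 18.3% lower. These comparisons share control arrays with those above. Itga4 was 2.99-fold lower in soleus (log2 difference -1.58, SE 0.13, limma adjusted p = 8.77e-10), with no overlap of arrays. Itga5 was 1.64-fold higher (0.72, SE 0.12, adjusted p = 2.93e-05), Itga10, a collagen-binding subunit best known from cartilage, was 1.40-fold higher (0.48, SE 0.09, adjusted p = 0.000178) and Itgb2l, near the dim limit in quadriceps, 1.29-fold higher (0.37, SE 0.10, adjusted p = 0.00458). Control arrays of both muscles did not overlap for these 4 genes, which held for 3.94% of all genes with soleus higher and 7.73% with soleus lower.

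Among the other called differences between control muscles, Itgb1bp1 was lower in soleus (-0.39, SE 0.10, adjusted p = 0.00318), a call that held under every alternative. The rest were less firm. Itgb3bp was also lower (-0.51, SE 0.18, adjusted p = 0.0265), but its call was lost without quadriceps control 4 or soleus control 1, 4 or 6 (0.0614 to 0.0778). Lama2 (0.33, adjusted p = 0.0131), Lama5 (0.27, adjusted p = 0.0288), Lama1 (0.21, adjusted p = 0.0247) and Itga1 (0.51, adjusted p = 0.0184) were higher in soleus. Of the 10 endothelial and 9 pericyte and smooth muscle markers 5 and 4 were also higher in control soleus (median difference 0.33 and 0.30), as were 5 of the 6 tenocyte markers (0.64), with none lower in these lists. Their part in these values was not tested. With each array centred on its median these 4 were not called (adjusted p = 0.108, 0.228, 0.288 and 0.0769), and the split became 3 higher and 4 lower, with Lamb1 added as lower (adjusted p = 0.0311). That centring moved the median difference of all genes from 0.03 to -0.07 and the share of higher among all called genes from 45.4% to 22.3%. Lama5 was also lost without quadriceps control 1, 4 or 5 or soleus control 6 (0.0568 to 0.0822), Lama1 without quadriceps control 2 or soleus control 1 or 3 (0.0543 to 0.0783), and Itga1 without quadriceps control 2 (0.0583) or soleus control 6 (0.0575). Itgb6 (0.37, adjusted p = 0.0785) was called with the muscles of 1 animal as a block (0.0355) and without quadriceps control 1 (0.00686). Without quadriceps control 5 Itgb3 was called (0.0285), without quadriceps control 6 Itga6 (0.0215), without soleus control 6 Lamb1 (0.045) and without quadriceps control 4 Itgb1bp2 (0.0422).

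The partners of integrins and laminins were counted in 4 lists that were chosen with earlier results of these data known. Over all genes 22.3% rose and 17.7% fell in quadriceps and 13.2% rose and 9.94% fell in soleus. In the list of adhesion complex genes, which link integrins to actin, 24 of 43 rose and 3 fell in quadriceps (median change 0.29) and 14 rose and 2 fell in soleus (0.13). The integrin-linked kinase Ilk rose by 0.64 and 0.45 in quadriceps and soleus, the kinase Src by 0.92 and 0.72, the tensin Tns3 by 1.08 and 0.59, talin (Tln1) by 0.66 and 0.70 and the filamin Flnc by 0.97 and 0.93. Talin 2 (Tln2) fell in quadriceps (-0.40) and tensin 1 (Tns1) in soleus (-0.88).

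In the list of other basement membrane genes 14 of 24 rose and 1 fell in quadriceps (median 0.33), and 3 rose and 2 fell in soleus (0.04), there close to the shares over all genes. Frem2 rose by 2.21 in quadriceps and 0.99 in soleus and Fras1 by 0.95 and 0.76; their products form a complex of epithelial basement membranes. Nidogen 1 (Nid1), which joins laminin to collagen, rose by 0.61 and 0.35. Frem2 was 1 of 4 genes of this list whose change was lower in soleus than in quadriceps (difference -1.22, adjusted p = 0.00738).

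The list of other laminin receptors, with dystroglycan and its complex, had 16 of 24 higher and 1 lower in quadriceps (median 0.38) and 12 higher and none lower in soleus (0.26). Syntrophin beta 1 (Sntb1) rose by 1.47 and 2.13, syndecan 2 (Sdc2) by 0.75 and 1.49 and the integrin-associated tetraspanin Cd151 by 0.69 and 0.83. Utrophin (Utrn) rose in quadriceps by 1.19, with a soleus change of 0.32 (adjusted p = 0.0557), and alpha-sarcoglycan (Sgca) fell in quadriceps by 0.39. The difference between muscles passed the test for Sdc2 (0.74, adjusted p = 0.00534) and Utrn (-0.87, adjusted p = 0.00152).

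Of 30 integrin ligands 18 rose and 3 fell in quadriceps (median 0.55), and 13 rose and 4 fell in soleus (0.21). Nephronectin (Npnt), the ligand of Itga8, rose by 1.75 and 1.75, Svep1, a ligand of Itga9, by 1.15 and 1.05, and Edil3, an alpha v ligand, by 0.77 and 1.13. Vitronectin (Vtn) fell by 0.27 and 0.53. Ltbp1, which stores latent transforming growth factor beta in the matrix, rose in quadriceps by 1.03 and changed by 0.12 in soleus (adjusted p = 0.47), a difference of -0.91 (adjusted p = 0.000414).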

How the data were processed

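RNA of 24 muscle samples, 6 in each of 4 groups taken from the sample titles, was measured on Affymetrix arrays. The deposited values are intensities per probe set that the authors made with Affymetrix Expression Console and RMA (background correction, quantile normalization, summary per probe set) on build mm10, per the submitters' processing notes; versions and array batches: not given in the sources used here. They are on a linear scale and were turned to log2. Of 35557 probe sets 21789 carry 1 gene symbol in the platform annotation; 1621 with several and 12147 with none were left out. The probe set with the highest mean was used per gene; each member had 1. A gene was tested if above an array's 30th percentile on at least 6 arrays.

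Limma 3.58.1 (R 4.3.3) fitted 4 group means to all 24 arrays (20 residual degrees of freedom, prior 6.52) over 15999 genes, with two-sided p-values adjusted over all of them by Benjamini-Hochberg (threshold 0.05). The script was tested on simulated data. Members and lists were chosen with earlier results of these data known. Every member is named; of each other list at most the 4 called genes of smallest p each way per comparison. Array weights came from limma.

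The labels number arrays 1 to 6 in every group. Deviations from the group means correlated between quadriceps and soleus of the same genotype and number with r from 0.155 to 0.305 in controls and from 0.216 to 0.45 in cKO, above 0.1 in 6 of 6 pairs each, so these were taken as muscles of 1 animal in a blocked alternative, although the labels give quadriceps cKO 4 another age than soleus cKO 4. Control and cKO arrays of 1 number, which differ in genotype, were not paired. Their r ran from -0.147 to 0.169 in quadriceps (above 0.1 in 3 of 6 pairs) and from 0.041 to 0.316 in soleus (4 of 6). The cKO array of the same number matched best for 2 of 6 controls in quadriceps and 4 of 6 in soleus. Between muscles of 1 genotype this held for 6 of 6. The number as a fixed block was run as an alternative. Promoter sequences are from RefSeq, GRCm38.p6.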

Additional observations from a re-analysis of the deposited data

Results flagged for a closer look

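Of 156 sets of 6 arrays (39 genes in 4 groups) 7 held an array far from the other 5 by Dixon's criterion, 4.49%, where chance alone gives about 1 in 20. In quadriceps control 4 Lamb2 read 7.85 where the next array read 8.49, and Itgb3bp read 5.07 where the next read 4.12. Lamb2 in quadriceps cKO 3 read 8.62 (next 8.73). Itgam was low in quadriceps cKO 1 at 5.16 (next 5.51) and in soleus cKO 6 at 5.03 (next 5.45). Itga2b was high in soleus cKO 1 at 4.92 (next 4.65), and Itgb2l in soleus control 1 at 4.82 (next 4.45).

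The cKO change differed between the muscles for 3 genes by limma's test of the difference, soleus minus quadriceps: Itga4 (0.70, adjusted p = 0.0165), Itgav (-0.56, adjusted p = 0.0204) and Itga1 (-0.79, adjusted p = 0.0261).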

How the results depend on the processing

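Beside the main setting 37 others were run, 24 of them leaving out 1 array, and 1 chosen after seeing the data (without the 3 arrays of weight under 0.4: quadriceps control 4 and 6 and soleus control 1). Of the calls, 12 of 17 higher and 2 of 4 lower in quadriceps, 10 of 10 higher and 0 of 2 lower in soleus, 2 of 3 for the difference (Itga4 and Itgav) and 5 of 10 between controls held under every setting in which the gene was tested; the report gives those lost. In no setting did a called member reverse. Members lower in quadriceps were 1 with the stricter filter, which tests fewer dim genes, and 2 with quadriceps fitted alone, against 4. Members lower in soleus were 0 with median centring, 1 without a filter and 5 with array weights, against 2. For the difference, 1 member was higher in the main setting, 2 with 75th percentile centring, 2 with the replicate number as a fixed block, 2 with the replicate block of muscles of 1 animal, 6 with array weights and 4 without the 3 arrays; 2 were lower, against 1 with median centring, 4 with array weights and 4 without the 3 arrays. Over all genes 1966 differed between muscles, 2952 with the replicate block of muscles of 1 animal, 3570 with array weights and 3675 without the 3 arrays. That block also ended the Itgb3bp call in quadriceps (0.0508); its other changes are given with the genes, and it changed no other member's call. The number as a fixed block also called Lamb2 in quadriceps (0.0365), Itga11 in soleus (0.0373), Itgb1bp2 for the difference (0.0349) and Itgb6 between controls (0.0335). Members higher in control soleus were 7, against 3 with median centring and 4 with controls fitted alone. Where not stated, the cause was not tested.

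Leaving out 1 array gave 12 to 18 members higher and 2 to 5 lower in quadriceps (2 without quadriceps control 5 or cKO 2 or 4), 10 to 11 and 0 to 3 in soleus (0 without soleus control 5 or 6 or cKO 1, 2 or 3), 1 to 2 and 1 to 3 for the difference (1 lower without quadriceps control 2), and 5 to 8 and 2 to 3 between controls. All genes called ran from 5692 to 7240, from 3235 to 4277, from 1576 to 2856 and from 4745 to 5759 in that order. Itgal, Itgae, Itgax, Itgb2l (in quadriceps), Itgb3bp and Lama1 lay near the dim limit, where a change can be understated. It can also rest on 1 array there: the Itgb3bp change in quadriceps went from -0.44 to -0.25 without quadriceps control 4.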

Other observations

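Itgbl1, which encodes a secreted protein related to integrin beta subunits and lies outside the naming rule, rose in cKO quadriceps from 7.20 ± 0.19 to 7.93 ± 0.07 (SD, n = 6 each; log2 change 0.73, SE 0.08, limma adjusted p = 7.05e-08). Soleus controls had 7.85 ± 0.13 and soleus cKO 7.79 ± 0.11 (-0.06, SE 0.08, adjusted p = 0.659), and the changes differed (-0.79, SE 0.12, adjusted p = 5.5e-05). Itgad, a leukocyte alpha subunit outside the rule, was not called in either muscle (-0.12, adjusted p = 0.265 in quadriceps and 0.01, adjusted p = 0.95 in soleus). Both were named after their values were seen.

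Control arrays varied more than cKO arrays for most members: the SD over 6 arrays was larger in controls for 32 of 39 genes in quadriceps (82.1%, beside 72.2% of all genes tested) and 27 of 39 in soleus (69.2%, beside 64.8%). Without quadriceps control 4 the quadriceps count was 29 of 39. The median SD of the members was 0.249 in quadriceps controls and 0.156 in quadriceps cKO, and 0.166 and 0.155 in soleus. This was not tested.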
